A study of Mus musculus with 15 samples.

Results

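The genes described here act at the start of nephron formation and in its first patterning. They are 10 named genes, taken in the order from induction to segmentation: Wnt4, Lhx1, Fgf8 and Pax8, then Jag1, Dll1, Notch2 and Hes5, and with them Ccnd1os and Lef1. They were listed by name and read in the 6 gene count tables of the series, which hold 46517 genes. Of the 10 genes, 9 matched a gene ID, and all 9 had enough reads to be among the 18132 genes tested. Ccnd1os, by its name an RNA from the strand opposite the cyclin D1 gene Ccnd1, matched no ID in the name tables used here and has no value below.

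All samples were kidneys of C57BL/6 mice. RNA sequencing compared 3 newborn kidneys at postnatal day 0 (P0) that carried floxed Dnmt1 alleles (genotype Dnmt1 f/f, called controls) with 3 of the same age and alleles that also carried Six2Cre (called KO). Reduced representation bisulfite sequencing (RRBS), which reads cytosine methylation in CpG-rich restriction fragments, covered 3 samples of each of these genotypes at P0 and 3 wild type adults of 6 weeks. Dnmt1 is the enzyme that copies DNA methylation to the new strand after replication. Six2 marks nephron progenitors, so a Cre recombinase under Six2 control acts in those cells and in the podocytes and tubules they give rise to, and not in the ureteric bud, stroma or endothelium. The samples' source label names Six2-positive cells, while the extraction protocol names whole kidneys, and the values are described here as whole kidney samples. No label says that the replicates came from separate animals, so p-values measure the spread between these samples, which may be technical.

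As background, nephrons begin when Wnt9b from the ureteric bud induces neighbouring progenitors to form a pretubular aggregate. The aggregate switches on Wnt4, Fgf8 and the transcription factors Lhx1 and Pax8 as it becomes a renal vesicle. The vesicle then lengthens and is divided into segments, and Notch signalling, in which Jag1 or Dll1 on one cell activates Notch2 on the next, is needed for the proximal segments and podocytes. Wnt signals reach DNA through beta-catenin and TCF/LEF factors such as Lef1, and Notch signals through RBPJ, which switches on Hes genes.

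RefSeq promoter sequences (build GRCm38.p6) were held for 8 of the 9 matched genes. Each sequence below is the 250 bases before the annotated start, 5′ to 3′ on the gene's own strand. Lef1 had 4 promoter entries and Dll1 had 2. For such genes only the most upstream entry was used, here and for methylation at gene starts. The first 3 show how widely CpG content, which RRBS depends on, differs in this group, and their capitals mark CpG dinucleotides. Wnt4 lies at chr4:137277385-137277634 on the plus strand, Lhx1 at chr11:84525535-84525784 on the minus strand and Pax8 at chr2:24475600-24475849 on the minus strand.
Wnt4: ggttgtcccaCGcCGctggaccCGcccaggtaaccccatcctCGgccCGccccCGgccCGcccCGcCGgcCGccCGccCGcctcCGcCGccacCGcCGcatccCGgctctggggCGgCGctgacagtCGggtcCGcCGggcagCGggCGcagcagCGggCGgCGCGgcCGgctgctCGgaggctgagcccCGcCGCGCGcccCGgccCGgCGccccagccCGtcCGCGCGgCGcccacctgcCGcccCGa
Lhx1: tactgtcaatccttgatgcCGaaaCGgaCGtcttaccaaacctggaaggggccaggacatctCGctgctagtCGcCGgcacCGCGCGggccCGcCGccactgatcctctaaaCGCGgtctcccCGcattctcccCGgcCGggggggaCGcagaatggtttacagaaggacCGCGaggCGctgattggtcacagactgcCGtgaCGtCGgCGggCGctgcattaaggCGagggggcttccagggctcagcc
Pax8: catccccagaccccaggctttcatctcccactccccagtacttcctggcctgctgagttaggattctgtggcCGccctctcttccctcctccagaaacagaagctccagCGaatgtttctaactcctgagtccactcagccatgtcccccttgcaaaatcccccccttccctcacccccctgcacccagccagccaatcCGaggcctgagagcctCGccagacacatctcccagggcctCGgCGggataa

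The Wnt4 promoter held 44 CpG and 7 MspI sites (CCGG, the cut site of the enzyme commonly used for RRBS), the Lhx1 promoter 26 CpG and 3 MspI sites, and the Pax8 promoter 6 CpG and no MspI site. Over 27025 mouse promoters of the same length the median was 6 CpG, and 46.8% held CCGG. Wnt4 had more CpG than 99.5% of them and Lhx1 more than 90.7%. The other promoters held 34 CpG (Notch2), 32 (Hes5), 20 (Jag1), 13 (Dll1) and 11 (Lef1).

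Hes5 is shown because it is the Notch target of the group. Its promoter lies at chr4:154960673-154960922 on the plus strand, before a start at 154960923. The gene span used here, 154960626 to 154962372, begins upstream of that start and takes in this promoter. The capitals mark matches to the RBPJ motif GTGGGAA read on both strands.
Hes5: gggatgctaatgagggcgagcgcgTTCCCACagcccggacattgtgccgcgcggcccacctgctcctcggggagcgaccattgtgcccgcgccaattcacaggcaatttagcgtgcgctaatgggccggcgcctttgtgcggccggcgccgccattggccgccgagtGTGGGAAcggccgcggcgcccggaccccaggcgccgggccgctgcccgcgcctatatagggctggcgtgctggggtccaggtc

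The matches began 226 and 83 bases before the start at 154960923. Hes5 was the only 1 of the 8 promoters with a match, and 5.39% of all promoters held one. A TCF/LEF motif, CTTTGAT on either strand, was in none of the 8 promoters and in 3.26% of all promoters. A match to these letters is a description of the sequence, not evidence of binding.

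The RNA libraries held 26773937 to 34102567 gene counts. Dnmt1 itself had 180.0, 156.2 and 188.1 CPM (read counts scaled to library size) in controls 1 to 3 and 109.9, 110.7 and 93.75 CPM in KO 1 to 3, so RNA of the targeted gene was still present in every KO library. Control 3 stood apart from the other controls. On the second principal component of log2 CPM, which held 21% of the variance, it lay at 46.98 against -31.03 and -28.83. Its summed CPM of 10 proximal tubule markers was 6011 against 2552 and 2178 in controls 1 and 2, its ureteric bud markers 825.8 against 1465 and 1463, and Six2 stood at 41.40 CPM against 98.04 and 107.0. The results of the 9 genes and the counts of the pathway lists are therefore also given without control 3. Between genotypes the marker sums differed widely. All 10 proximal tubule markers were lower in KO (2180 to 6010 CPM in controls, 415 to 531 in KO), as were all 8 podocyte markers (871 to 1200 against 333 to 431), 7 of 8 markers of the loop of Henle and distal tubule and 6 of 10 endothelial markers. The remaining loop and distal tubule marker, Calb1, was higher (log2 fold change 0.56, edgeR adjusted p 0.0274). Summed nephron progenitor markers were 561 to 631 CPM in controls and 589 to 641 in KO, and ureteric bud markers 826 to 1460 and 1050 to 1690. Stroma summed to 4500 to 5410 and 4160 to 4930 CPM, with 3 of 10 markers higher (Foxd1 by 1.63, Pdgfra by 0.79 and Meis1 by 0.54 on the log2 scale) and none lower, and a median log2 fold change of 0.47. Leukocytes summed to 96.2 to 126 and 104 to 166 CPM, with 2 of 8 markers higher (C1qa and Ptprc), and neurons with glia and the adrenal cortex to no more than 16 CPM in any library. In whole kidney RNA, fewer cells of a type and less RNA per cell cannot be told apart.

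Of the 9 genes, Lhx1 alone changed in KO kidneys at an adjusted p under 0.05 (edgeR quasi-likelihood test, adjusted over all 18132 genes). It fell, and no gene of the group rose by that test. Across all genes tested, 14.6% passed, 6.36% higher and 8.23% lower, so 1 of 9 is near the background. The groups did not overlap in 3 of the 9 genes (Lhx1, Pax8 and Dll1), against 34.4% of all genes. At an unadjusted p under 0.05 there was 1 gene higher, Dll1. DESeq2 called none higher and limma voom with sample weights 2, Dll1 and Jag1. Without control 3, the test called Lhx1 and Fgf8 lower and Dll1 and Jag1 higher, while the background rose to 13.8% lower and 13.6% higher of 18533 genes.

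Wnt4, the ligand that drives progenitors into an epithelial vesicle (ENSMUSG00000036856.4, chromosome 4, 137277635 to 137299501), stood at 186.1, 180.9 and 141.5 CPM in controls and 158.0, 196.4 and 181.4 CPM in KO. The 3 KO values lay within the range of the controls except for KO 2, which was the highest of all 6. The means were 169.5 ± 24.4 and 178.6 ± 19.3 CPM (SD, n = 3 per group), a log2 fold change of 0.08 with a 95% interval from -0.26 to 0.41 (SE 0.15, edgeR adjusted p 0.799). Without control 3 it was -0.04 (edgeR adjusted p 0.818).

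Lhx1 (ENSMUSG00000018698.14, chromosome 11, 84517975 to 84525534) encodes a LIM homeodomain factor needed for the renal vesicle to develop further. It stood at 67.54, 55.44 and 92.52 CPM in controls and at 46.33, 40.39 and 42.11 CPM in KO. Every KO library lay below every control, and the KO values spread far less than those of the controls. The mean fell from 71.8 ± 18.9 to 42.9 ± 3.06 CPM (SD, n = 3 per group), a fold of 0.598. That is a log2 fold change of -0.74 (SE 0.18, 95% interval -1.16 to -0.32, edgeR adjusted p 0.0309). Control 3, the highest, added to the size of this change: without it the log2 fold change was -0.52 and the adjusted p 0.0132. The call was lost when control 1 was left out (edgeR adjusted p 0.0722), when KO 1, 2 or 3 was left out (0.0851, 0.122 and 0.108) and with scaling by library size alone (-0.73, 0.0873). DESeq2 gave -0.74 (adjusted p 0.00508). The marker sums of podocytes and tubules given above were also lower in all 3 KO libraries than in the controls, and their part in the Lhx1 value was not tested.

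Fgf8, a growth factor of the early vesicle that keeps its cells alive (ENSMUSG00000025219.12, chromosome 19, 45736491 to 45742941), was at 12.03, 13.53 and 8.29 CPM in controls and 7.852, 7.18 and 9.538 CPM in KO. Controls 1 and 2 lay above all KO libraries, and control 3 lay among them. Means were 11.3 ± 2.70 and 8.19 ± 1.22 CPM (SD, n = 3 per group), with a log2 fold change of -0.46 (SE 0.23, 95% interval -0.99 to 0.07, edgeR adjusted p 0.24). Without control 3 it was -0.64 and passed (edgeR adjusted p 0.0254).

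Pax8, a paired-box factor switched on as cells commit to the nephron (ENSMUSG00000026976.14, chromosome 2, 24420551 to 24475599), was at 191.5, 151.0 and 158.3 CPM in controls. In KO it was at 141.1, 141.9 and 142.4 CPM, below every control and close to each other (SD 0.674 CPM, against 21.6 CPM in controls). The log2 fold change was -0.24 (SE 0.12, 95% interval -0.52 to 0.05, edgeR adjusted p 0.257), and -0.27 without control 3 (edgeR adjusted p 0.108).

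**Figure D1:**
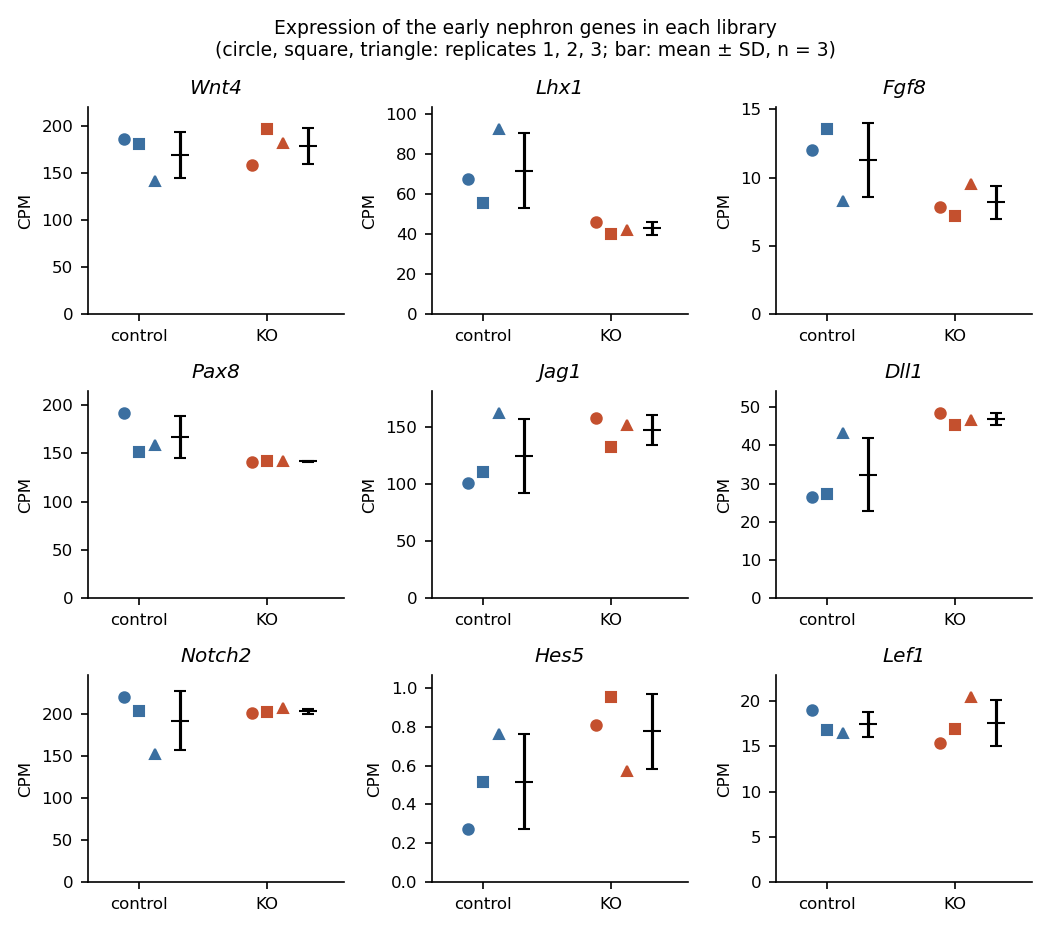
CPM of the 9 genes (vertical axis, from 0, with its own scale for each gene) in each control (blue) and KO (red) library. Symbols mark replicates 1 to 3, and the bar at the right of each group is the mean ± SD (n = 3). Lhx1 and Pax8 lie lower and Dll1 higher in all 3 KO libraries than in all 3 controls, and control 3 (blue triangle) is the highest control for Lhx1, Jag1, Dll1 and Hes5 and the lowest for Wnt4, Fgf8, Notch2 and Lef1.

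Dll1 differed most among the Notch genes of the group with more than 1 CPM. It encodes a Delta-type Notch ligand (ENSMUSG00000014773.12, chromosome 17, 15367354 to 15376932) and stood at 26.53, 27.28 and 43.24 CPM in controls and 48.39, 45.21 and 46.74 CPM in KO. All KO values lay above all controls, with control 3 next to them. The means were 32.4 ± 9.44 and 46.8 ± 1.59 CPM (SD, n = 3 per group). Its log2 fold change was 0.53 (SE 0.19, 95% interval 0.09 to 0.975), which did not pass after adjustment (edgeR adjusted p 0.111). Without control 3 it was 0.80 and passed (edgeR adjusted p 0.000663).

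Jag1, the Jagged-type ligand of the segmenting vesicle (ENSMUSG00000027276.7, chromosome 2, 137081451 to 137116520), was at 101.4, 110.8 and 162.2 CPM in controls and 157.8, 133.0 and 151.6 CPM in KO. Again controls 1 and 2 lay below all KO libraries, and here control 3 was the highest of the 6. The log2 fold change was 0.24 (SE 0.18, 95% interval -0.18 to 0.66, edgeR adjusted p 0.46), and 0.475 without control 3 (edgeR adjusted p 0.0112).

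Their receptor Notch2 (ENSMUSG00000027878.11, chromosome 3, 98013538 to 98150367) was at 220.2, 204.0 and 153.1 CPM in controls and 201.4, 202.2 and 207.0 CPM in KO. The KO values lay inside the control range. Its log2 fold change was 0.08 (SE 0.15, 95% interval -0.26 to 0.42, edgeR adjusted p 0.79) and -0.06 without control 3 (edgeR adjusted p 0.654). The Notch target Hes5 (ENSMUSG00000048001.7, chromosome 4, 154960626 to 154962372), a transcriptional repressor, had few reads. It had 9, 16 and 28 reads in controls and 26, 29 and 15 in KO, or 0.274, 0.518 and 0.761 CPM against 0.81, 0.951 and 0.57 CPM. The groups overlapped, and the log2 fold change of 0.58 had a 95% interval from -0.42 to 1.58 (edgeR adjusted p 0.452). Without control 3 it was 0.98 (edgeR adjusted p 0.124). The interval takes in both a decrease and a change of over 1 log2 unit upward.

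Lef1, the DNA-binding partner of beta-catenin that is itself a common Wnt target (ENSMUSG00000027985.13, chromosome 3, 131110297 to 131224357), was at 19.01, 16.76 and 16.5 CPM in controls and 15.39, 16.92 and 20.41 CPM in KO. The log2 fold change was 0.01 (SE 0.16, 95% interval -0.36 to 0.38, edgeR adjusted p 0.975), and -0.03 without control 3 (edgeR adjusted p 0.913). Ccnd1, the cell cycle gene that Ccnd1os lies opposite by its name, was at 394.6, 354.5 and 306.9 CPM in controls and 293.0, 309.5 and 341.0 CPM in KO (log2 fold change -0.16, edgeR adjusted p 0.523, and -0.25 with p 0.109 without control 3). The library kit's name does not say that strand was kept, so reads of an RNA opposite Ccnd1 cannot be told apart from its own.

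**Figure D2:**
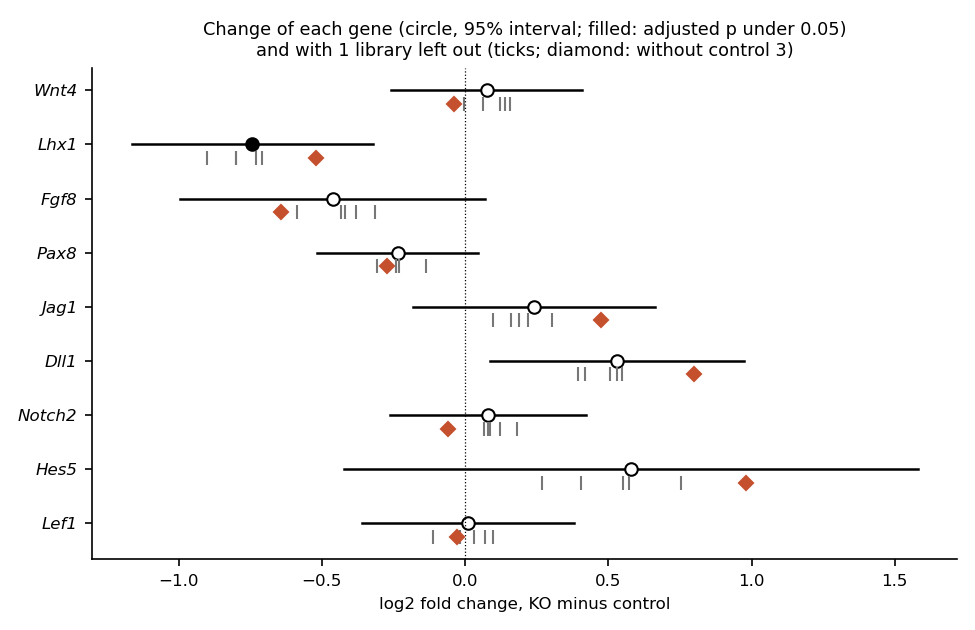
Log2 fold change of KO over control (horizontal axis) for the 9 genes, with the 95% interval from edgeR, filled where the adjusted p was under 0.05. Ticks give the value with 1 library left out, and the red diamond the value without control 3. Lhx1 is the single filled point, at -0.74, and the diamonds of Fgf8, Jag1 and Dll1 lie farther from 0 than their main values.

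Ratios of read counts between genes of the same library need no scaling between libraries, and they set the genes against each other. Over the 36 pairs of the 9 genes, the 3 KO libraries lay apart from the 3 controls in 12. Among all pairs of tested genes 38.0% did, so the number of separated pairs is not above the background. The pairs below were picked after their values were seen and carry no test. Lhx1 had 2.54, 2.03 and 2.14 reads for each Dll1 read in controls 1 to 3, and 0.958, 0.893 and 0.901 in KO 1 to 3. The control values for this pair were close to each other, control 3 included, and the mean log2 ratio differed by -1.28 in KO. Against Jag1, the ratio of Lhx1 was 0.666, 0.501 and 0.57 in controls and 0.294, 0.304 and 0.278 in KO, a log2 difference of -0.98. So relative to both Notch ligands Lhx1 was lower in each KO library than in each control. The ratio of Jag1 to Dll1 was 3.82, 4.06 and 3.75 in controls and 3.26, 2.94 and 3.24 in KO, a log2 difference of -0.301. By contrast the ratio of Wnt4 to Notch2, at 0.845, 0.887 and 0.924 in controls and 0.784, 0.971 and 0.876 in KO, overlapped and differed by -0.02 on the log2 scale.

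**Figure D3:**
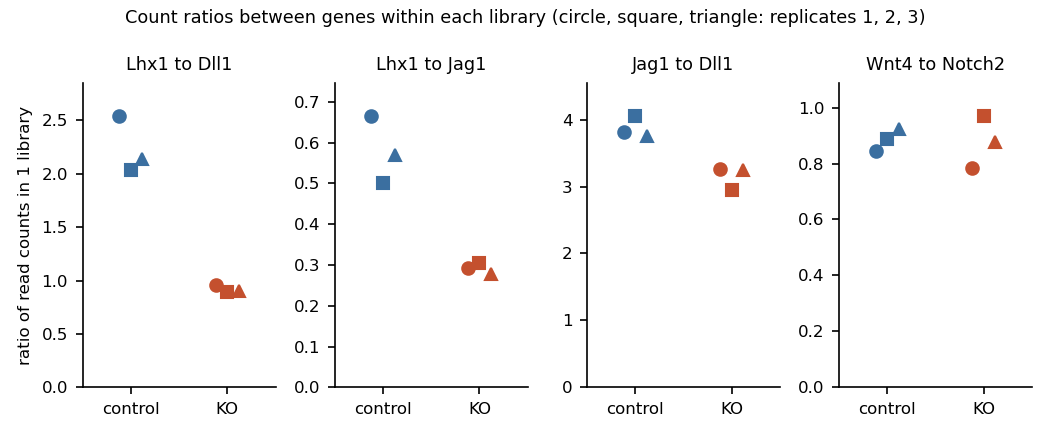
Ratio of the read counts of 2 genes in the same library (vertical axis, from 0, a scale for each pair) in controls (blue) and KO (red), with symbols for replicates 1 to 3. The ratio of Lhx1 to Dll1 lies between 2.03 and 2.54 in controls and between 0.893 and 0.958 in KO, while that of Wnt4 to Notch2 overlaps between the groups.

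The wider Wnt pathway was read in 5 lists. The counts of this and the following lists stand beside 6.36% of all tested genes higher and 8.23% lower, or 13.6% and 13.8% without control 3. Of 14 Wnt ligands tested, 3 were higher and 1 lower (median log2 fold change 0.055, and -0.0007 over all genes tested). Wnt10b went from 0 to 0.162 CPM in controls to 1.64 to 2.09 CPM in KO, with a fitted log2 fold change of 4.19 (edgeR adjusted p 0.00346), and Wnt9a rose by 1.47 and Wnt2b by 1.32. Wnt16 fell by 1.36. Wnt10b got through the filter on low counts only by its KO reads. With at least 10 counts required in every sample, it was not tested. It passed with any 1 library left out. Wnt9a did not without KO 1 or KO 3 (edgeR adjusted p 0.0538 and 0.0652), and Wnt2b and Wnt16 passed in no fit with 1 library left out other than control 3. Of the ureteric ligands, Wnt9b, the inducing signal, was at 24.86, 18.61 and 49.98 CPM in controls and 39.23, 45.27 and 32.34 CPM in KO. Its log2 fold change was 0.32 (edgeR adjusted p 0.602), and 0.84 without control 3 (edgeR adjusted p 0.0089). Wnt11, a tip signal, had a log2 fold change of -0.37 (edgeR adjusted p 0.41), and without control 3 it was called lower. Wnt7b, also a ureteric ligand, was called in neither fit.

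Among 18 Wnt receptors and coreceptors, 2 were higher (Fzd2 by 0.59 and Fzd7 by 0.39 on the log2 scale) and 2 lower (Fzd5, -1.25, and Fzd4, -0.48). Fzd5 passed with any 1 library left out. Fzd2 did not without KO 2 or KO 3, nor Fzd4 and Fzd7 without any 1 library other than control 3. Without control 3 the counts were 5 higher and 4 lower. Of 16 secreted and surface modulators 3 were higher and 4 lower. Rspo3, an R-spondin that boosts Wnt reception, rose from 14.71, 11.84 and 9.649 CPM to 23.71, 26.33 and 34.88 CPM (log2 fold change 1.23, SE 0.21, edgeR adjusted p 0.00666). Rspo3, like Fgf10 and Wnt2b, is known from kidney stroma. Of 10 stroma markers 3 were higher and none lower, or 4 and 1 without control 3. Their sum was 4500 to 5410 CPM in controls and 4160 to 4930 CPM in KO, and the part of stroma in these values was not tested. The secreted antagonists Dkk1 (-0.82) and Frzb (-0.96) fell. Kremen2, a Dkk coreceptor, rose by 2.02 from a control mean of 0.483 CPM. Rspo3, Frzb and Kremen2 passed with any 1 library left out, while Dkk1 did not without control 1 or any 1 KO library. Inside the cell, 1 of 18 components was higher (6.36% of all genes), the beta-catenin cofactor Pygo1 (0.59, not past without KO 1), and none was lower, with 4 at an unadjusted p under 0.05 in edgeR. Ctnnb1, which encodes beta-catenin, was at 860.7 to 1167 CPM in controls and 1091 to 1211 in KO (0.14, edgeR adjusted p 0.688).

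Of 15 general Wnt target genes, 4 were higher and 2 lower, with a median log2 fold change of 0.03. Axin2, the feedback inhibitor most often read as a Wnt reporter, was at 25.93, 28.38 and 36.64 CPM in controls and 55.84, 55.40 and 44.88 CPM in KO. Each KO library lay above each control (log2 fold change 0.78, SE 0.16, edgeR adjusted p 0.0155). The transcription factor Sp5 rose from 3.56, 4.11 and 4.89 CPM to 12.4, 10.03 and 12.7 CPM (1.48, edgeR adjusted p 0.00269), and the receptor Tnfrsf19 rose by 0.93. Axin2 did not pass without control 1, KO 1 or KO 2 (edgeR adjusted p 0.0638, 0.0749 and 0.0766), while Sp5 and Tnfrsf19 passed with any 1 library left out. Apcdd1, a Wnt inhibitor, fell by 0.70 (not past without KO 1 or KO 3), and Dkk1 is also in this list. Lef1 and Ccnd1, both in this list, did not pass. Without control 3 the list again had 4 higher and 2 lower, the ligand list 4 and 2, the modulators 4 and 4 and the intracellular components 1 and 2.

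The Notch lists held 1 changed gene, a receptor, against 14.6% of all genes. None of the 4 tested ligands passed in edgeR: beside Jag1 and Dll1, Jag2 had a log2 fold change of -0.11 and the endothelial ligand Dll4 -0.52 (edgeR adjusted p 0.0764). Of the 4 receptors Notch4 was lower, at 52.77, 39.68 and 56.24 CPM in controls and 27.98, 25.70 and 28.84 CPM in KO (-0.85, SE 0.15, edgeR adjusted p 0.00785), and it passed with any 1 library left out. Notch4 is best known from endothelium, whose summed markers were 1100 to 1540 CPM in controls and 704 to 894 CPM in KO, and their part in the Notch4 value was not tested. Notch1 was at 183.5, 125.0 and 134.1 CPM in controls and 109.6, 98.84 and 104.0 CPM in KO, below every control, and did not pass (-0.50, edgeR adjusted p 0.0698, and -0.57 with p 0.0244 without control 3 or -0.61 with p 0.0455 without control 2). Notch3 had -0.14. None of 21 Notch processing and modifying enzymes, 7 nuclear complex genes or 7 target genes passed in edgeR. At an unadjusted p under 0.05 there were 2, 1 and 1 of them, and 2 of the ligands. Without control 3, 4 enzymes, the nuclear gene Maml3 and the target Hey2 passed. Hes1 was at 26.78, 43.27 and 57.35 CPM in controls and 55.77, 42.42 and 33.17 CPM in KO (0.04, edgeR adjusted p 0.943), and Rbpj, the DNA-binding partner of the receptors, at 30.47 to 45.79 CPM and 36.10 to 60.00 CPM (0.51, edgeR adjusted p 0.191). Hey2, a target gene with a vascular role, had -0.78 (edgeR adjusted p 0.0544).

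Among 7 Fgf ligands, 3 were higher (6.36% of all genes): Fgf20, a progenitor maintenance factor, from 0.152, 0.291 and 0.734 CPM to 5.02, 4.98 and 2.17 CPM (3.34, edgeR adjusted p 0.00673), Fgf10 by 1.13 and Fgf2 by 0.64. Fgf8, of the same list, did not pass, and Fgf9 had -0.70 (edgeR adjusted p 0.11). Of 5 receptor genes Fgfr4 fell (-0.87, edgeR adjusted p 0.00248), and of 8 feedback genes Spry4 fell (-0.65, edgeR adjusted p 0.0352). Fgf20 got through the filter on low counts only by its KO reads, and was not tested with at least 10 counts in every sample. Fgf20 and Fgfr4 passed with any 1 library left out. Fgf10 did not without KO 1 or KO 3, Spry4 did not without control 1 or any 1 KO library, and Fgf2 did not without any 1 library other than control 3. Without control 3 the ligands had 3 higher and 1 lower, which was Fgf8, the receptors 1 and 1, and the feedback genes 0 and 2.

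A list of 28 early nephron genes, which holds 7 of the 10 genes, had 10 lower and 2 higher (8.23% and 6.36% of all genes) and a median log2 fold change of -0.25. Without control 3 it had 14 lower and 5 higher. Irx1, a marker of the middle segments, fell from 89.32, 70.45 and 44.58 CPM to 13.24, 14.59 and 13.79 CPM (-2.30, SE 0.24, edgeR adjusted p 0.000707). Papss2 (-1.44), Tmem100 (-1.32), Irx3 (-0.65) and Pou3f3 (-0.81) also fell. Wt1 (-0.59), a podocyte factor, fell beside the lower podocyte sums given above, whose part was not tested. Npy and Sox9 rose by 1.03 and 0.96. Irx1, Papss2, Tmem100 and Pou3f3 passed with any 1 library left out, while Irx3, Wt1, Npy and Sox9 each did not without control 1 or without KO 1, among others. Pax2, present from the progenitor onward, had -0.22 (edgeR adjusted p 0.334), and without control 3 it was called lower.

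**Figure D4:**
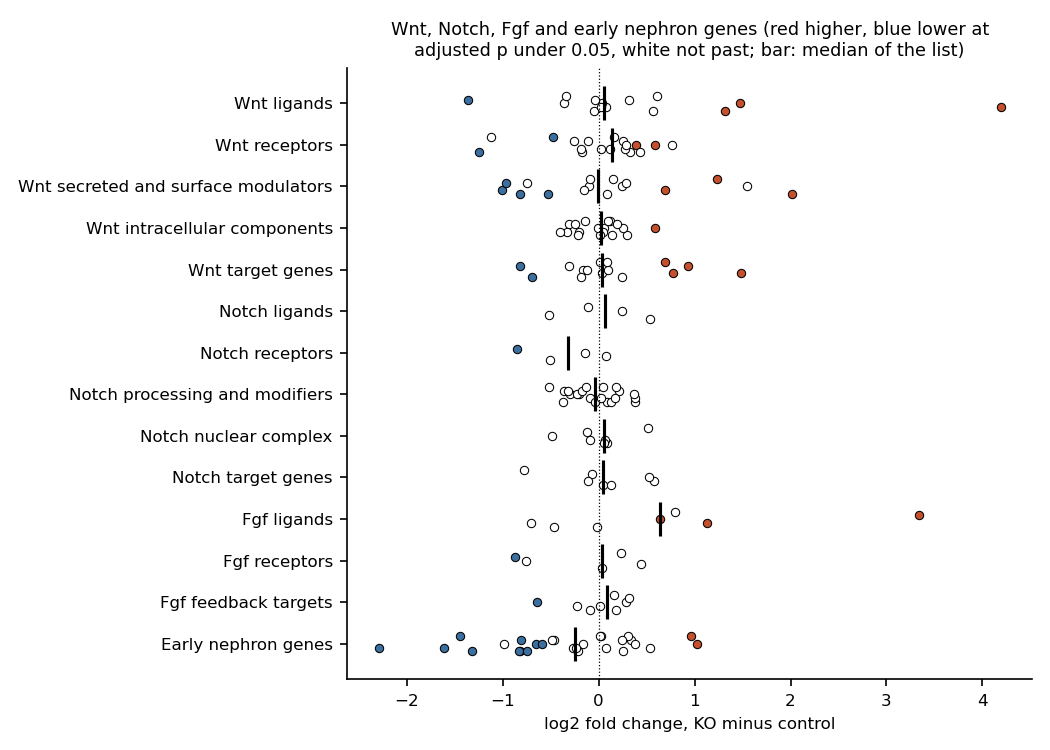
Log2 fold change of KO over control (horizontal axis) of each tested gene in 14 lists (rows), red where higher and blue where lower at an edgeR adjusted p under 0.05, and white otherwise. The bar is the median of a list. The Notch ligand, processing, nuclear and target lists hold no coloured point, while the early nephron list holds 10 blue and 2 red points.

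CpG methylation was read at the same genes as a second measurement. Within 1000 bases of the start, 6 of the 9 genes had at least 3 positions with 10 or more calls in all 6 P0 samples, and all were nearly free of methylation in controls, with means of 0% (Lef1, 4 positions), 0.682% (Notch2, 15), 0.879% (Jag1, 24), 1.58% (Lhx1, 32), 1.89% (Dll1, 10) and 2.6% (Hes5, 8). Over all genes the median start was at 1.6% in controls, and 73.7% of starts were under 5%. Of the 6 starts, none was lower or higher in KO (edgeR adjusted p from 0.184 to 0.97, with 1, Lef1, at an unadjusted p under 0.05), and at all genes 5.13% were lower and 0.0728% higher. In none of the 6 did the groups lie apart (19.1% of all genes). Lhx1, whose RNA fell, stood at 1.62%, 1.075% and 2.04% in controls and 1.315%, 1.353% and 0.44% in KO, from 682 to 3069 calls per sample. At Dll1 the values were 2.56%, 2.22% and 0.901% in controls and 1.46%, 2.1% and 7.14% in KO. At Lef1 all P0 samples were at 0% except KO 2 at 15%, from as few as 40 calls in a sample. The CpG-dense start of Wnt4 had too few calls for this minimum. With at least 5 calls, 20 positions gave 2.03%, 0.896% and 0.476% in controls and 3.79%, 0.341% and 8.33% in KO (edgeR adjusted p 0.424). The start of Pax8 had no value. Its promoter held no MspI site, but neither did that of Lef1, whose start had 4 positions.

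In gene bodies, from 1000 bases inside the start to the gene end, 4 of 6 genes with values lost methylation in KO, against 78.6% of all bodies lower and 0.252% higher. In 3 of the 6 the groups did not overlap (78.3% of all). Wnt4 went from 65.21%, 63.95% and 61.55% in controls to 51.62%, 39.72% and 47.25% in KO (19 positions, edgeR adjusted p 0.000643). Notch2 went from 66.93%, 64.91% and 58.22% to 45.64%, 36.06% and 52.23% (52 positions, edgeR adjusted p 6.39e-05), and Lef1 from 66.25%, 62.13% and 62.64% to 50.95%, 47.19% and 45.78% (90 positions, edgeR adjusted p 1.65e-06). Every KO sample lay below every control at these 3 genes. Mean differences were -17.4, -18.7 and -15.7 points, or 27.3%, 29.5% and 24.7% of the control level. Bodies of all genes above 40% in controls lost a median of 27%. The RNA of Wnt4, Notch2 and Lef1 differed by 0.08, 0.08 and 0.01 on the log2 scale in the same comparison, none past the test. Pax8 also passed, at 19.55%, 9.65% and 14.21% in controls and 4.06%, 11.49% and 7.75% in KO, with overlapping groups over 6 positions (edgeR adjusted p 0.0339). No label ties an RRBS sample to an RNA library of the same number. The Pax8 call was lost without RRBS control 3 (adjusted p 0.0665), without control 1 or KO 1 (0.156 and 0.278), and with at least 5 calls (0.108). Jag1, at 45.68%, 57.11% and 59.93% against 45.16%, 42.73% and 59.61%, did not pass (edgeR adjusted p 0.304), though it did without KO 3 (-10.3 points, adjusted p 0.0428). The body of Lhx1 was at a low level already in controls. Over 31 positions it was at 3.71%, 2.92% and 3.78% in controls and 2.66%, 3.59% and 3.92% in KO (edgeR adjusted p 0.914). Only 5.2% of gene bodies were under 5% in controls.

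For Fgf8, whose strand was not in the tables used, methylation was taken over the whole gene with 1000 bases on each side, a region added after seeing the data. Its 13 positions were at 5.01%, 5.67% and 8.64% in controls and 8.83%, 6.14% and 4.785% in KO (edgeR adjusted p 0.839). Over such spans 54.8% of all genes were lower and 0.387% higher, and the groups did not overlap in 59.4%.

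Adult samples were compared with P0 controls by description alone. In the body of Lhx1 the adults stood at 13.29%, 12.55% and 12.44%, all above the 3 P0 controls (mean 12.8% ± 0.462 against 3.47% ± 0.476, SD, n = 3 each). Over the span of Fgf8 the adults were at 17.65%, 16.52% and 18.53% (mean 17.57% ± 1.01 against 6.44% ± 1.94), and at the start of Hes5 at 9.5%, 4.11% and 7.72% (7.11% ± 2.75 against 2.6% ± 0.851), again above every P0 control. All adults lay above all controls at 5.67% of starts, 14.9% of bodies and 10.9% of spans over all genes. The groups lay apart in either direction at 38.9%, 36.8% and 39.6%. The body of Lef1 lay lower in adults, at 60.15%, 54.52% and 57.44%, while Wnt4 (62.62%, 66.45% and 61.80%) and Notch2 (65.68%, 58.81% and 61.96%) overlapped the P0 controls. Genotype and age both differ between these groups, wild type at 6 weeks and Dnmt1 f/f at P0, and cannot be told apart.

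**Figure D5:**
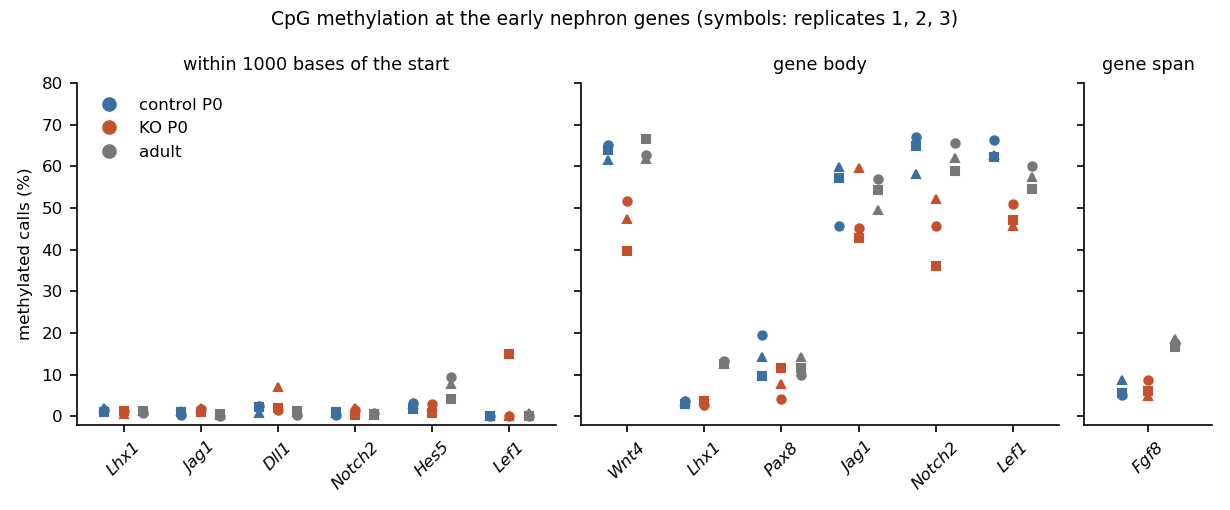
Methylated calls in percent (vertical axis) within 1000 bases of the start, in the gene body and, for Fgf8, over the gene span, in P0 controls (blue), P0 KO (red) and adults (grey), with symbols for replicates 1 to 3. The bodies of Wnt4, Notch2 and Lef1 lie lower in all 3 KO samples than in all 3 controls, and the adults lie above the P0 controls at the Lhx1 body, the Fgf8 span and the Hes5 start.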

How the data were processed

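RNA and RRBS samples were grouped by the genotype and age in the labels. The gene counts were deposited by the authors as raw counts, and per the submitters' processing notes STAR 2.4.1d and HTSeq 0.6.1 were used, with builds mm10 and GRCm38. The RRBS files were deposited by the authors with a methylation percent and the counts of methylated and unmethylated calls per position, and the notes name Trim Galore and Bismark. The role of each tool and the strand setting are not given in the sources used here.

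Gene counts were tested with edgeR 4.0.16 in R 4.3.3 (quasi-likelihood test, TMM scaling, filterByExpr, group as the only term, Benjamini-Hochberg over all genes tested at 0.05). The 5 lines of reads given to no gene, 22.9% to 35.8% of the reads of a library, were left out. SE and 95% intervals come from the same fit. RRBS calls were summed over positions with at least 10 calls in all 6 P0 samples, for regions with at least 3 positions, and tested with the edgeR model for methylated and unmethylated calls. Calls are not independent molecules, so counts of calls bound counting error only. Depth was 26773937 to 34102567 gene counts per RNA library and 18424875 to 88765177 calls per RRBS sample. Gene symbols, spans and promoters came from RefSeq tables (GRCm38.p6), and exon structure was not used, so levels are not compared between genes.

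On simulated data the count test recovered 67.8% of 90 genes changed 2-fold and 95.5% of 110 genes changed 4-fold. Of the 17827 genes in that run, 20 unchanged ones were also called. The changed genes were drawn from levels above that of Hes5. The methylation test recovered 81% of 200 starts (among 9621 regions) and 91.5% of 200 bodies (among 10732 regions) lowered by 20 points. Unchanged regions made up 6.9% of its calls at starts and 3.17% in bodies.

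The genes and lists were chosen with earlier results of these data known. Named genes were all 10 members, up to 4 genes per pathway list with the smallest p among those past 0.05 (mean log2 CPM no lower than 0), and a fixed set of pathway genes. Others named from a list (Irx3, Pou3f3, Wt1, Npy, Sox9, Dll4, Hey2, Jag2, Notch3, Fgf9, Wnt11, Wnt7b) were added after their values were seen. Alternatives were other scalings, filters and thresholds, DESeq2 1.42.0, limma 3.58.1 voom with sample weights, a replicate block, other call minimums and windows, and each replicate left out. Count ratios within libraries (pseudocount 0.5) and gene spans were added after seeing the data. Not every gene chosen this way is named here. The planned ratio of Ccnd1os to Ccnd1 was not run. Replicate pairs in each group differed by far more than sampling noise, so none was a library deposited more than once.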

Additional observations from a re-analysis of the deposited data

How the results depend on the processing

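Signs in gene counts were followed for the members, the fixed set of pathway genes and the called genes of the pathway lists. For methylation they were followed for the members alone. None of these genes past the threshold changed sign in the alternatives run. The RNA log2 fold changes of Wnt4, Notch2, Lef1, Hes1 and Six2, none past it, took both signs when 1 replicate was left out. For gene counts, 1153 genes were higher and 1493 lower. limma voom with sample weights gave 2442 and 2595, a minimum of 10 counts in every sample gave 678 higher, and an adjusted p under 0.01 gave 528 and 681. With 1 replicate left out, the counts were 647 to 2512 higher and 701 to 2561 lower, highest in both directions without control 3. Of the 9 members tested, 0 to 2 were higher and 0 to 2 lower with 1 replicate left out. Members lower numbered 0 with library size alone, 0 at an adjusted p under 0.01 and 2 with limma voom, which also called 2 higher. For methylation at gene starts, 493 regions were lower and 7 higher. A minimum of 20 calls gave 230 and 3, a minimum of 5 calls 830 lower, a window of 500 bases 239 lower, and a window of 2000 bases 1160 and 20. Leaving out 1 replicate gave 315 to 513 lower and 0 to 11 higher. In gene bodies 8433 were lower and 27 higher. A minimum of 20 calls gave 4749 lower, and leaving out 1 replicate 7818 to 8531 lower and 21 to 45 higher. Over gene spans, leaving out 1 replicate gave 10161 to 11817 lower and 57 to 95 higher. The cause of these shifts was not tested, though fewer positions enter at a higher minimum of calls.

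Same-numbered RNA libraries had a mean correlation of deviations of -0.1669, against 0.0822 for other numbers. For methylation the values were 0.0052 against -0.0025 at gene starts and 0.0083 against -0.0041 in gene bodies. Deviations from group means of 3 samples tie these correlations to each other, so they cannot settle whether the replicate numbers pair the samples. With a replicate block, Lhx1 had a log2 fold change of -0.71 (edgeR adjusted p 0.0408) and 1 member was lower and 0 higher. The alternatives planned for the ratio of Ccnd1os to Ccnd1 were not run, since Ccnd1os matched no gene ID.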
